A study of Mus musculus with 8 samples.

Results

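Expression of ovarian surface epithelium genes was examined in RNA-Seq libraries of mouse primordial follicles. The 10 genes Upk1b, Upk3b, Krt7, Krt8, Krt18, Krt19, Msln, Muc16, Lrrn4 and Gpm6a were selected by symbol out of the 26586 genes listed, and their selection drew on an earlier look at how these libraries differ between the groups, so that every difference given for them is a description. The gene lists set beside them were likewise chosen with earlier results of these data known. All 10 members passed the expression filter that kept 13873 genes. The libraries were prepared from total RNA of primordial follicles picked from enzyme-digested ovaries on postnatal day 3, with the strain background of both groups labelled C57Bl/6 x CBA. The 4 mitochondrial supplemented (mito-supplemented) libraries came from the third generation of a line founded by adding autologous mitochondria to oocytes at sperm injection, and 4 libraries were from controls. Sperm injection and added mitochondria both belong to the history of the mito-supplemented line and cannot be told apart here. The labels call the libraries biological replicates, and their label codes fall into 4 prefixes. These are 280 (controls 1 and 2), 301 (controls 3 and 4), C56 (mito-supplemented 1 to 3) and C60 (mito-supplemented 4). Each prefix holds libraries of 1 group only, so that every difference between the groups is also a difference between prefixes.

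The surface epithelium is the sheet of flattened to cuboidal cells that covers the ovary and is continuous with the mesothelium of the body cavity. It carries keratins of simple epithelia together with mesothelial membrane proteins such as mesothelin, and in the newborn ovary it lies directly over the cortex in which primordial follicles form. A primordial follicle itself consists of an oocyte and flat pregranulosa cells, and in bulk libraries such as these, fewer cells of a type and less RNA per cell cannot be told apart.

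The members are spread over 8 chromosomes, and only the keratins Krt7, Krt8 and Krt18 share a chromosome. Krt8 (chr15:101996698-102004482, minus strand) and Krt18 (chr15:102028180-102032027, plus strand) lie 23697 bases apart and pointing away from each other, whereas Gpm6a (chr8:54954843-55060871, plus strand) and Upk1b (chr16:38773184-38800328, minus strand) stand alone. The bases before the start sites of Upk3b, Krt8, Krt18 and Gpm6a are shown because Krt8 and Krt18 are neighbours, Upk3b was the member closest to the mean of all 10, and Gpm6a departed from it. Start-site windows from RefSeq (GRCm38.p6) were matched for 7 of the 10 members, with Gpm6a represented by 2 windows, which both lie before its GENCODE span, and not for Upk1b, Krt19 and Msln. Within the 250 bases before each start, 4 motifs were searched on both strands, namely the TATA box (TATAAA), the GC box (GGGCGG), the AP-1 motif (TGANTCA) and the TEAD motif (GGAATG), with matches in capitals. The stretches shown run 5′ to 3′ on the strand of the gene and hold no exon of GENCODE M21, and those of Krt8 and Krt18 were shortened to end where the first exon begins. They cover chr5:136038246-136038495 for Upk3b, chr15:102004483-102004592 for Krt8, chr15:102027966-102028179 for Krt18, and chr8:54779184-54779433 and chr8:54954478-54954727 for the upstream and downstream starts of Gpm6a.
Upk3b: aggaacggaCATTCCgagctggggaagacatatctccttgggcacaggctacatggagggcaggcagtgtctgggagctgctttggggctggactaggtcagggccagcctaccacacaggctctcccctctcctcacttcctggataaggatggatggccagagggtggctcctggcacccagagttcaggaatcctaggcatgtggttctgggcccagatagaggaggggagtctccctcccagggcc
Krt8: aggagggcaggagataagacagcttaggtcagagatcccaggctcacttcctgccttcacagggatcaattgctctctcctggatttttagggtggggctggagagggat
Krt18: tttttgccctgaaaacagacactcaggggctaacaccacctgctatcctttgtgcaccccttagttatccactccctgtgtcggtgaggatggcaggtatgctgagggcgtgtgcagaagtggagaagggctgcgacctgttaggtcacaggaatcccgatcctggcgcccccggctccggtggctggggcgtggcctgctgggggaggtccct
Gpm6a upstream: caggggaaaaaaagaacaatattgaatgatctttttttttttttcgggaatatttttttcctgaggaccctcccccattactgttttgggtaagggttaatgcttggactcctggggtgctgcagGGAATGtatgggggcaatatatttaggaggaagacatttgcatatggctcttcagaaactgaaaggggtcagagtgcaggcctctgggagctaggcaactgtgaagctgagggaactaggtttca
Gpm6a downstream: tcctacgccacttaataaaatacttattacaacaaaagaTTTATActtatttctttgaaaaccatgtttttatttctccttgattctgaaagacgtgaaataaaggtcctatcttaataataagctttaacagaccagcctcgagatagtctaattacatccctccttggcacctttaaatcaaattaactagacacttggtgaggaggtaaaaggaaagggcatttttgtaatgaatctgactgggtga
GGAATG was present in 3 of the 8 member windows, those of Upk3b (241 bases before the start), Lrrn4 (196 bases) and the upstream start of Gpm6a (125 bases), against 12.6% of all 32851 windows in the table. TATAAA was present in 1 window, the downstream start of Gpm6a (211 bases before it), against 12.4% of all windows. GGGCGG was found 4 times in the window of Krt7, which overlaps exons of a longer Krt7 transcript and is not shown, and in no other member window, against 32.7% of all windows. TGANTCA was in 0 of the 8 windows, against 6.75% of all. No 2 matches overlapped, and the members shared no motif beyond GGAATG.

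Depth and composition differed between the libraries. Controls 1 to 4 held 17658559, 13917412, 18219362 and 10370045 counts on genes, and mito-supplemented 1 to 4 held 19760763, 13370911, 16116434 and 13276462. The genes listed as Rnr1, Rnr2, Rn45s and Rn18s, which carry the names of rRNA genes, took 75.3% of the counts in control 4 and between 20.1% and 45.6% in the other libraries, which left 2559876 other counts in control 4 and at least 7280214 elsewhere. Levels are given below as CPM, the counts of a gene relative to the TMM-scaled total of its library, and control 4 had the lowest scaling factor (0.489, against 0.909 to 1.39 in the others). Control 4 therefore stands apart, and the fold changes of the members that rest on it are given with and without it.

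In the comparison of mito-supplemented with control libraries, which asks how gene expression in primordial follicles differs between the groups, the 10 members all had higher mean levels in mito-supplemented libraries. Upk1b and Gpm6a stood 35.0-fold and 20.3-fold above the control mean in CPM, and the other 8 members between 1.95-fold and 4.04-fold. The groups did not overlap for these 2 genes (2 of 10 members, with 3.00% of all genes tested not overlapping in this direction), and nothing is read from this count because the contrast was known when the members were chosen. In edgeR's quasi-likelihood test 0 of 13873 genes passed an adjusted p of 0.05 and a 2-fold difference, with 1069 genes at an unadjusted p under 0.05, while 58 genes passed in edgeR's likelihood ratio test and 141 in DESeq2. The likelihood ratio test called Upk1b and Gpm6a among the members, where 0.411% of all genes tested were called higher and 0.00721% lower (0% by the quasi-likelihood test in either direction). The members' count of 2 was 9 without control 4, where 2.25% of all genes tested were called, and nothing is read from either. The count of 58 was 22 without control 2, 331 without control 4, 387 without mito-supplemented 1, 13 without mito-supplemented 2 and 26 without mito-supplemented 4. Of the 58 genes 57 were higher, whereas of the 387 without mito-supplemented 1 only 229 were higher and the rest lower.

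Upk1b encodes a tetraspanin first known from the urothelial plaque. It had 4.72, 0.238, 0.858 and 0.790 CPM in controls 1 to 4, and 29.0, 134, 23.9 and 44.8 CPM in mito-supplemented 1 to 4. The lowest mito-supplemented library was 5.07-fold above the highest control, which was control 1. The control levels rest on 115, 3, 15 and 4 counts, and the exact 95% Poisson limits of the 4 counts in control 4 were 0.215 and 2.02 CPM. These limits hold for counting error alone. The log2 fold change was 5.07 (standard error 0.99), and it was 6.55 without control 1 and 4.26 without mito-supplemented 2, so that a single library on either side moved it by more than 1.5 times on the linear scale.

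Gpm6a encodes a membrane glycoprotein of the proteolipid family that is best known from neurons. Its levels were 1.93, 4.20, 1.26 and 5.92 CPM in controls 1 to 4, and 38.9, 66.6, 40.8 and 124 CPM in mito-supplemented 1 to 4. The groups were separated by a factor of 6.57 between the highest control and the lowest mito-supplemented library. The counts behind these levels were 47, 53, 22 and 30 in controls and 802 to 1785 in mito-supplemented libraries. The log2 fold change of 4.37 (standard error 0.65) was between 3.93 and 4.80 when any 1 library was left out. Among the members, the spread of Gpm6a within controls was the lowest, with 4.71-fold between the highest and lowest control.

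**Figure D1:**
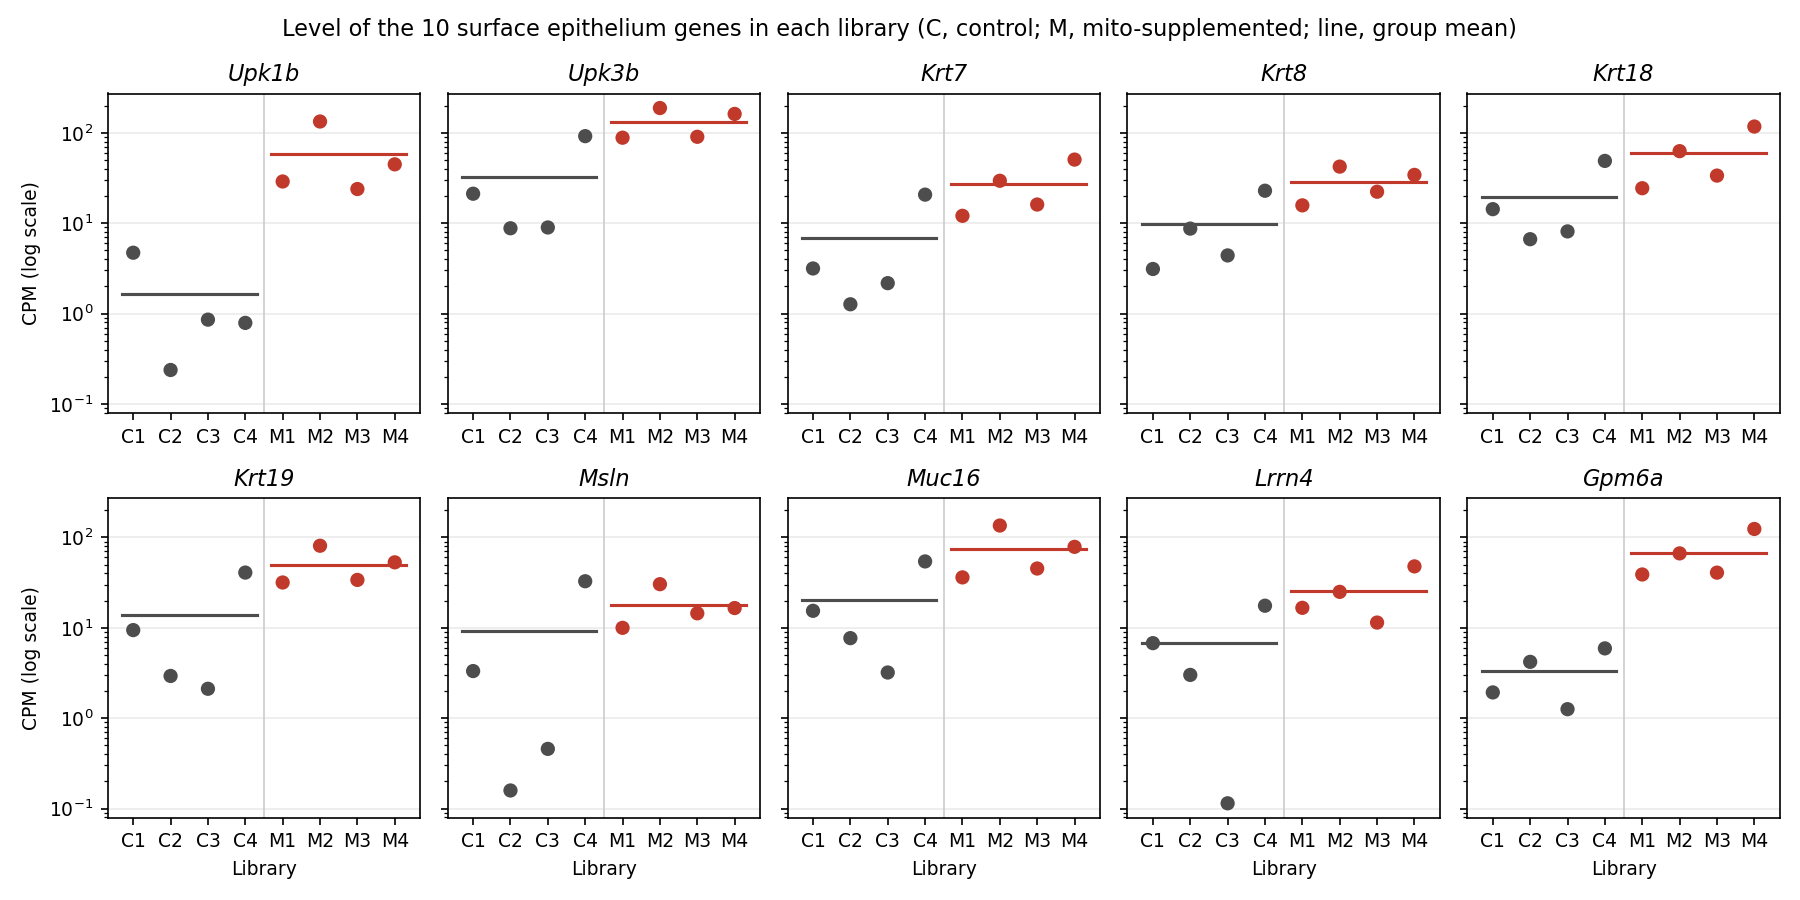
Level of each of the 10 members in CPM on a log axis in the 4 control (C) and 4 mito-supplemented (M) libraries, with a line at each group mean. Upk1b and Gpm6a have no overlap between the groups, whereas control 4 (C4) lies within or above the mito-supplemented range for the other 8 genes.

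Upk3b, the second uroplakin among the members and a marker of mesothelium, had 21.2, 8.80, 8.98 and 92.0 CPM in controls 1 to 4 and 88.4, 188, 90.5 and 162 CPM in mito-supplemented 1 to 4. Control 4 was thus above mito-supplemented 1 and 3, while controls 1 to 3 were below every mito-supplemented library. The mean was 132 ± 50.6 CPM (SD, n = 4) in mito-supplemented libraries, against 32.7 ± 39.9 CPM (SD, n = 4) for controls. The log2 fold change was 2.02 (standard error 0.75) and 3.36 without control 4.

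The keratins pair a type II with a type I chain to build the filaments of simple epithelia, with Krt8 and Krt7 as type II and Krt18 and Krt19 as type I. Krt8 had 3.12, 8.72, 4.40 and 22.9 CPM in controls 1 to 4 and 15.8, 42.3, 22.3 and 34.3 CPM in mito-supplemented 1 to 4. Krt18 had 14.3, 6.66, 8.12 and 48.9 CPM in controls 1 to 4, against 24.4, 62.7, 33.7 and 118 CPM in mito-supplemented 1 to 4. For both genes control 4 lay above mito-supplemented 1 and 3, and the other controls lay below all mito-supplemented libraries. Krt7 ranged from 1.27 to 20.7 CPM across controls, and from 12.1 to 50.6 CPM in mito-supplemented libraries. Krt19 ranged from 2.12 to 40.9 CPM across controls, and from 31.7 to 81.0 CPM in mito-supplemented libraries. Without control 4 the highest control levels of Krt7 and Krt19 were 3.16 and 9.44 CPM, below every mito-supplemented library. The log2 fold changes of Krt7, Krt8, Krt18 and Krt19 were 2.02, 1.57, 1.62 and 1.87 (standard errors 0.90, 0.66, 0.73 and 0.86), and 3.63, 2.42, 2.63 and 3.38 without control 4. Exons of Krt7 and Krt8 overlap those of Gm671 and Gm36026 on the opposite strand, and a processed pseudogene of Krt8 lies on chr7:23357125-23358069, so that the counts of Krt7 and Krt8 are uncertain to that extent.

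Values per kilobase rest on GENCODE M21 exons, which may differ from those the authors counted on, and the 7049 bases of Krt7 include a longer transcript. On that basis the type I chains Krt18 and Krt19 together exceeded the type II chains Krt7 and Krt8 in all 8 libraries, by 3.05-fold to 4.47-fold in mito-supplemented libraries and by 1.34-fold to 7.38-fold in controls. The extremes were control 2 and control 1. The ratio of Krt18 to Krt8 was 2.11, 2.02 and 2.05 in mito-supplemented 1 to 3 and 4.67 in mito-supplemented 4, and in controls 1 to 4 it was 6.26, 1.04, 2.51 and 2.91. The ratio of Krt19 to Krt7 was 9.98 and 10.4 in mito-supplemented 1 and 2 and 3.98 in mito-supplemented 4, and in controls 1 to 4 it was 11.4, 8.79, 3.70 and 7.49. Mito-supplemented 4 thus had the highest ratio of Krt18 to Krt8 and the lowest of Krt19 to Krt7 in its group, and all ratios of that group lay within the range of the controls.

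Msln encodes mesothelin, a membrane-anchored glycoprotein that binds the large mucin encoded by Muc16. Msln had 3.32, 0.159, 0.458 and 32.8 CPM in controls 1 to 4 and 30.4, 14.5 and 16.5 CPM in mito-supplemented 2 to 4, with the lowest mito-supplemented level in mito-supplemented 1 (206 counts). Control 4 held the highest level of Msln of any library, and control 2 the lowest with 2 counts, a 207-fold range within the controls. The log2 fold change of 0.99 (standard error 1.24) was the smallest among the members, and it was 3.75 without control 4. Muc16 had 15.4, 7.69, 3.20 and 54.3 CPM in controls 1 to 4 and 36.1, 135, 45.3 and 78.7 CPM in mito-supplemented 1 to 4, with control 4 again above mito-supplemented 1 and 3. Its log2 fold change was 1.89 (standard error 0.81) and 3.09 without control 4. Lrrn4, a membrane protein with leucine-rich repeats, had 6.77, 3.01, 0.114 and 17.6 CPM in controls 1 to 4 and 16.6, 25.0, 11.4 and 47.8 CPM in mito-supplemented 1 to 4. The level in control 3 rests on 2 counts, and the log2 fold change was 1.90 (standard error 1.03) and 2.95 without control 4.

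Compared per kilobase of exon, Krt18 and Upk3b were the most abundant members in both groups, at 41.5 ± 29.2 and 37.5 ± 14.3 CPM per kilobase (SD, n = 4) in mito-supplemented libraries and 13.6 ± 13.9 and 9.28 ± 11.3 CPM per kilobase (SD, n = 4) in the controls. Upk1b was at place 9 of 10 in controls (0.790 ± 0.988 CPM per kilobase) and at place 3 in mito-supplemented libraries (27.7 ± 24.5 CPM per kilobase), and Gpm6a was at place 7 in controls and place 5 in mito-supplemented libraries. Place 3 of Upk1b rests on mito-supplemented 2 (63.9 CPM per kilobase). In mito-supplemented 1, 3 and 4 it had 13.9, 11.4 and 21.5 CPM per kilobase, below Krt19 in each. Over controls 1 to 3 Upk1b was at place 5 (0.928 ± 1.16 CPM per kilobase, SD, n = 3) and Gpm6a at place 7. Muc16, whose exons span 26.4 kilobases in GENCODE M21, was at place 10 in both groups, and over controls 1 to 3 at place 9 with Krt7 last. In mito-supplemented libraries Krt8 (14.6 ± 6.07 CPM per kilobase) and Lrrn4 (6.79 ± 4.33 CPM per kilobase) were the only neighbours in this order whose means differed by more than either SD, and in controls no neighbours did.

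Many members shared the order of some libraries within their group, but not of all. Control 1 had 7 members above and 3 below the control mean of log2 CPM, and control 2 had 3 above and 7 below. Control 4 was the highest control for 9 of the 10 members, with Upk1b as the exception, and control 3 was below the control mean of log2 CPM for all 10. Mito-supplemented 2 and 4 were the upper pair of their group for all 10 members, and mito-supplemented 1 was the lowest for 8 of them. As a score of surface epithelium content, the mean log2 CPM of the 10 members was 2.68, 1.46, 1.01 and 4.38 in controls 1 to 4 and 4.64, 6.00, 4.80 and 5.91 in mito-supplemented 1 to 4. The mean score was 5.34 ± 0.72 (SD, n = 4) in mito-supplemented libraries and 2.38 ± 1.51 (SD, n = 4) in the controls, a difference of 2.96 on the log2 scale. The score of control 4 was 0.26 below that of mito-supplemented 1, and without control 4 the difference between the groups was 3.65.

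On a linear scale the groups overlapped. The 10 members summed to 83.4, 43.7, 31.7 and 337 CPM in controls 1 to 4 and to 303, 795, 332 and 729 CPM in mito-supplemented 1 to 4, which put control 4 above mito-supplemented 1 and 3. The mean sum was 539.9 ± 258 CPM (SD, n = 4) in mito-supplemented libraries, 4.36-fold above the 124 ± 144 CPM (SD, n = 4) of the controls. Without control 4 the control mean was 52.9 ± 27.1 CPM (SD, n = 3) and the ratio 10.2. Upk3b made up between 20.1% and 29.2% of the sum in every library and was its largest single part in all 8.

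**Figure D2:**
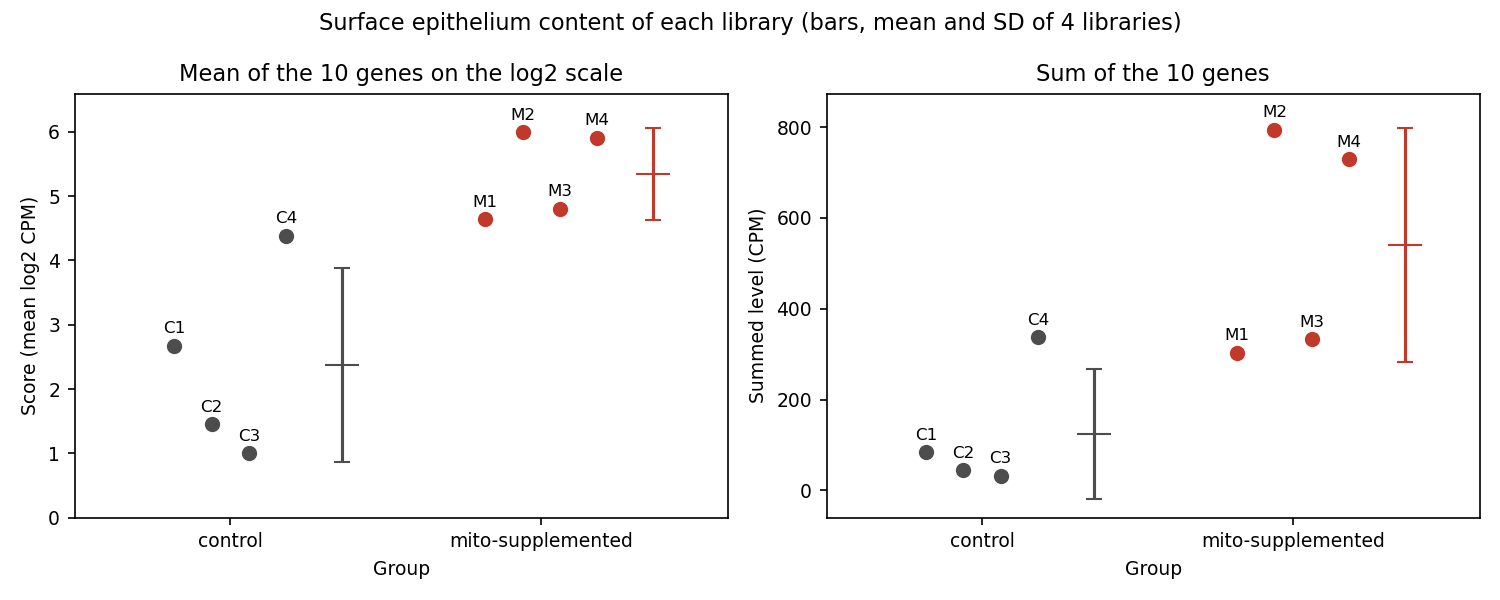
Score (mean log2 CPM of the 10 members, left) and summed level in CPM (right) of each library, with the mean and SD of the 4 libraries of each group. The scores of the groups are separated by 0.26 between control 4 (C4) and mito-supplemented 1 (M1), and the sums overlap, with 337 CPM in control 4 and 303 CPM in mito-supplemented 1.

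Upk1b and Gpm6a were both lowest in control 4 when set against the other members. The mean log2 CPM of the 8 members without them, a subset formed after the values were seen, was 2.93, 1.74, 1.20 and 5.17 in controls 1 to 4 and 4.53, 5.85, 4.76 and 5.83 in mito-supplemented 1 to 4. By these 8 genes control 4 lay above mito-supplemented 1 and 3, and the group means were 2.76 ± 1.76 and 5.25 ± 0.70 (SD, n = 4), a difference of 2.48 (3.29 without control 4). Relative to the mean of the 8, Upk1b was lower by 5.30 in control 4, where the log2 difference was -5.30, and the difference was -0.66, -3.22 and -1.23 in controls 1 to 3 and 0.33, 1.21, -0.17 and -0.34 in mito-supplemented 1 to 4. The same log2 difference for Gpm6a was -1.90, 0.37, -0.74 and -2.57 in controls 1 to 4 and 0.75, 0.21, 0.59 and 1.12 in mito-supplemented 1 to 4. These differences were higher in every mito-supplemented library than in any control for Upk1b, whereas for Gpm6a control 2 lay among the mito-supplemented libraries. The separation for Upk1b is a description only, as the gene was set apart after its values were seen. Its level in control 4 rests on 4 counts. Expressed as shares of the summed level, Upk1b took 5.66%, 0.544%, 2.71% and 0.234% in controls 1 to 4 and 6.15% to 16.8% in mito-supplemented libraries. The share of Gpm6a was 2.31%, 9.62%, 3.97% and 1.76% in controls 1 to 4 and 8.38% to 17.0% in mito-supplemented libraries, with control 2 again inside that range.

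**Figure D3:**
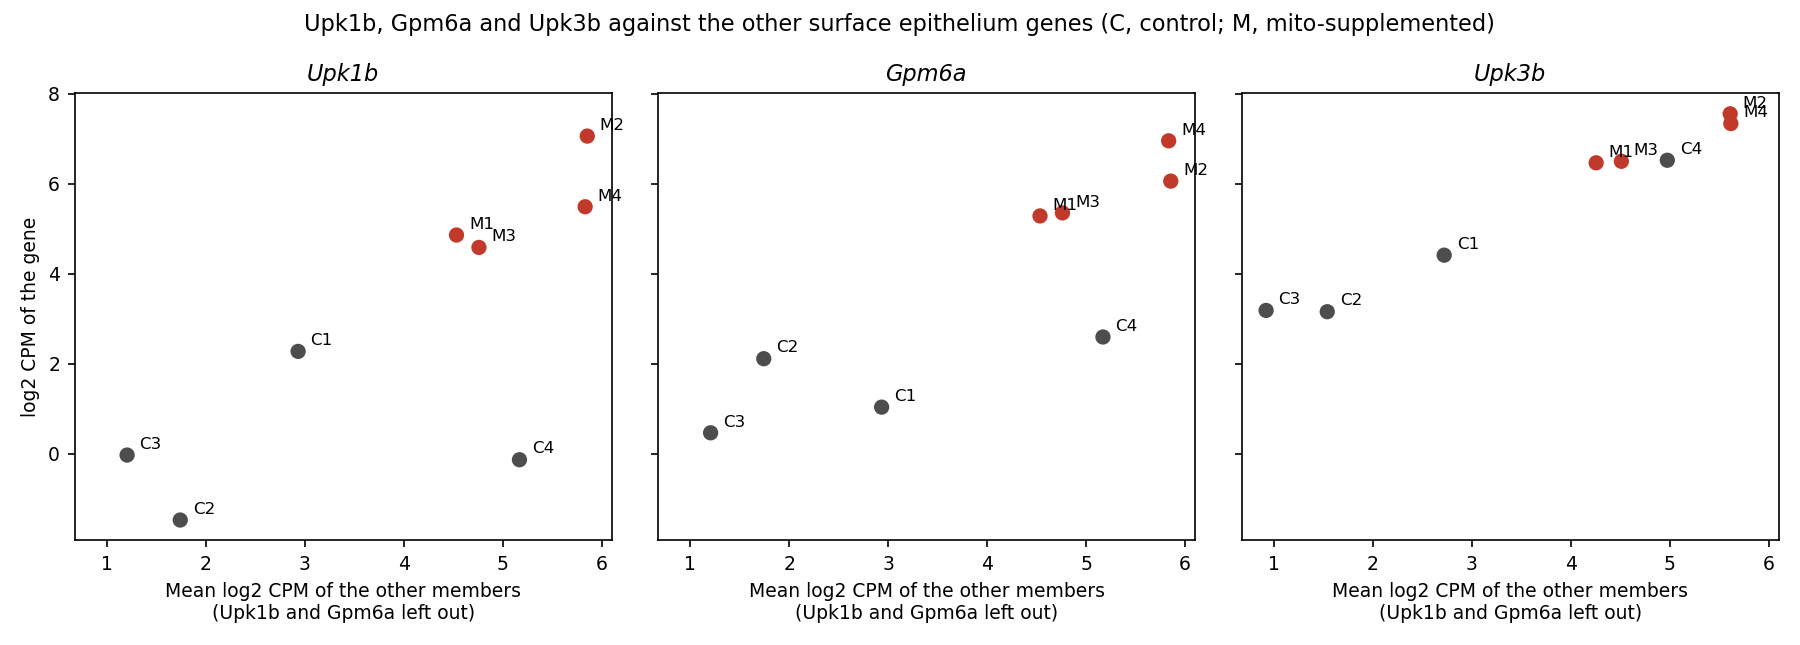
log2 CPM of Upk1b, Gpm6a and Upk3b (vertical axes) against the mean log2 CPM of the other members in the same library (horizontal axes, Upk1b and Gpm6a left out of the mean, and Upk3b also in its own panel), for control (C) and mito-supplemented (M) libraries. At a mean of 5.17 for the others, control 4 (C4) has far less Upk1b (4 counts) and Gpm6a (30 counts) than mito-supplemented libraries at 4.53 to 5.85. Upk3b, the member closest to the score, shows no such gap, and nothing is read from this because its closeness leaves little room for one.

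How the libraries were scaled decided the overlap of the other members. With TMM factors, with DESeq2 size factors and with the rRNA-named genes left out, the groups did not overlap for 2 members, Upk1b and Gpm6a, in each case. Of all genes tested, 3.00%, 2.90% and 3.22% did not overlap in this direction under these scalings. With library size alone they did not overlap for 9 members, all but Msln, where 6.62% of all genes tested did not overlap in this direction and 0.202% in the other, and the mean of the 8 members was 4.14 in control 4 and 4.60 in mito-supplemented 1. Under this scaling the median over the 13873 genes went from -0.10 to 0.17 in log2 fold change, a shift of 0.27.

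Of 21 related surface epithelium and mesothelium genes outside the members 16 were tested. All 16 had a log2 fold change above 0 (15 of 16 without control 1, and 19 of 20 with every gene counted at least once kept), with a median of 1.78 (2.57 without control 4) against -0.10 over all genes tested. The likelihood ratio test and the quasi-likelihood test each called 0 of the 16, 9 had an unadjusted p under 0.05 in the quasi-likelihood test (7.71% of all genes tested), and DESeq2 called 3 (1.02% of all). Groups did not overlap for 3 of the 16, Cldn15, Lgr5 and Podxl (3.00% of all genes tested in this direction). Because the list was chosen with earlier results of these data known, nothing is read from these counts. Lgr5, a receptor for R-spondins, had 21.1, 16.6, 9.44 and 82.5 CPM in controls 1 to 4 and 126, 268, 128 and 179 CPM in mito-supplemented 1 to 4. The difference was 2.44 on the log2 scale (standard error 0.66, adjusted p = 0.544 in edgeR's quasi-likelihood test) and 3.50 with control 4 left out, with levels higher in 4 of 4 mito-supplemented libraries than in any control. Which cells the Lgr5 RNA came from was not tested. For the tight junction gene Cldn15 the log2 difference was 2.68 (standard error 0.83, adjusted p = 0.599 in the same edgeR test), with 0.159 to 2.09 CPM in the control libraries against 5.31 to 11.4 CPM in mito-supplemented ones. Podxl, a sialomucin with the highest CPM of the related genes in mito-supplemented libraries (in controls Aldh1a1 was highest), differed by 2.07 on the log2 scale (standard error 0.54, adjusted p = 0.544 in the same edgeR test). Wt1, a transcription factor of the mesothelium that pregranulosa cells also express, had 355 ± 205 CPM (SD, n = 4) in mito-supplemented libraries and 137 ± 131 CPM (SD, n = 4) in the controls, with overlap. Calb2 had 0 counts in every library, which allows up to 3 counts or between 0.123 and 0.592 CPM. The sums of the 21 genes were 588, 569.9, 751 and 1688 CPM in controls 1 to 4 and 1625, 3441, 1732 and 3016 CPM in mito-supplemented 1 to 4, with control 4 above mito-supplemented 1. Without control 4 the likelihood ratio test called 8 of the related genes, without mito-supplemented 1 it called 3, and without control 3 it called 1. Those fits called 2.25%, 2.72% and 0.421% of all genes tested.

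**Figure D4:**
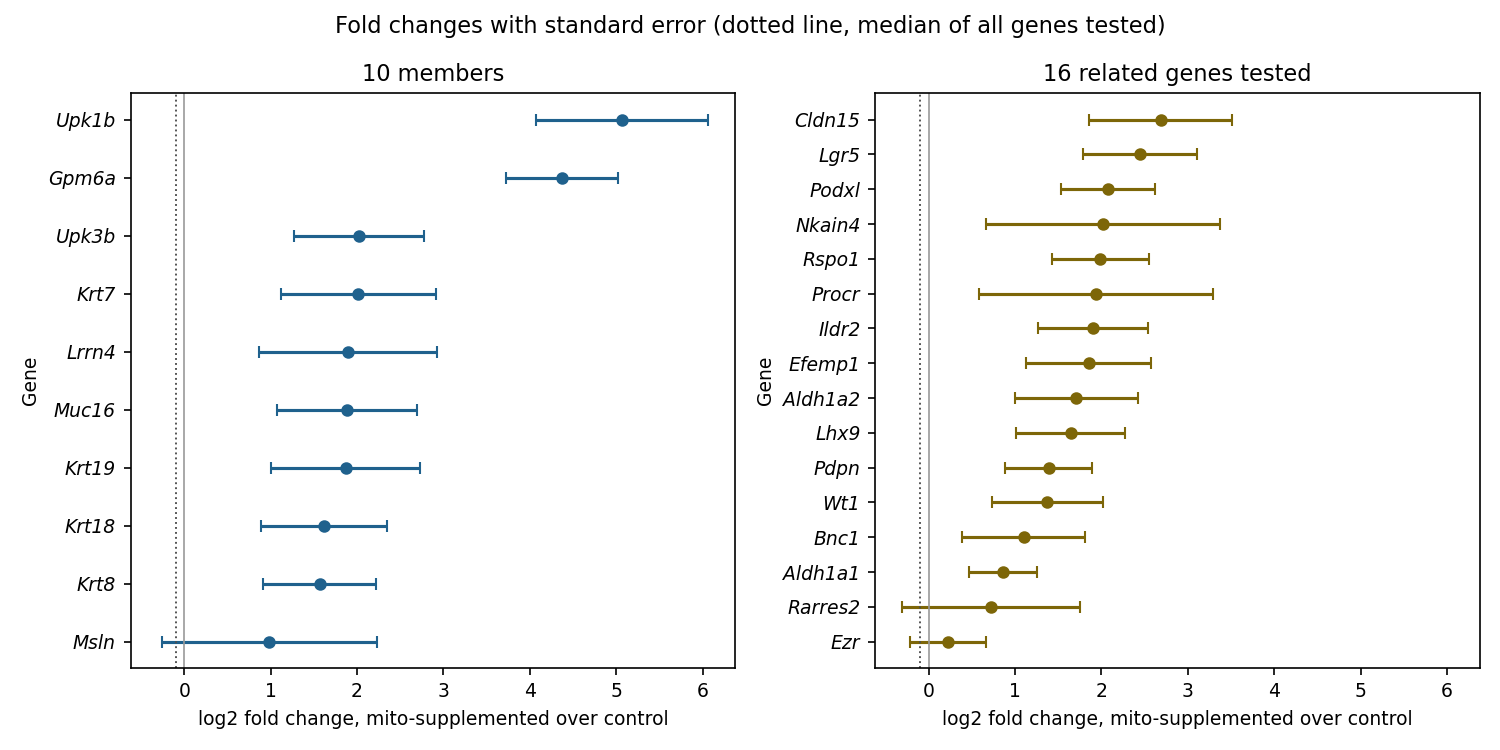
log2 fold change of mito-supplemented over control libraries with its standard error for the 10 members (left) and the 16 related genes tested (right), with a solid line at 0 and a dotted line at the median of all genes tested (-0.10). Upk1b (5.07) and Gpm6a (4.37) lie above all other genes plotted, and the related genes lie between 0.22 and 2.68.

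The members' own families were largely at low levels outside the 10 genes. Of 22 keratin, uroplakin, mucin and proteolipid relatives analysed here, 7 were tested, with a median log2 fold change of 1.05 (0.36 without mito-supplemented 2), 5 of them higher and 2 lower, and the likelihood ratio test called 0, or 1 without control 4 or mito-supplemented 1. Krt4, Krt5, Krt6a, Upk2 and Upk3a had 0 counts in all 8 libraries, with the same limits as for Calb2, and Krt14 had at most 8 counts and Upk1a at most 12 in any library. The markers of stratified epithelium Krt5 and Krt14 and of urothelium Upk2 and Upk3a were thus at or near 0, and no absence of a cell type is read from them. Krt20 of the same list, named after its values were seen, was not near 0 and reached 647 counts. Its log2 fold change of 3.54 (standard error 1.04) was the largest of the list. Krt20 had 16.1 ± 19.6 CPM (SD, n = 4) in mito-supplemented libraries and 1.42 ± 0.938 CPM (SD, n = 4) in the controls, and its groups overlapped. The relatives summed to between 35.4 and 122 CPM in controls, at control 2 and control 3, and to 77.1, 220.3, 235 and 185 CPM in mito-supplemented 1 to 4, and Lrrn1 was the most abundant of them.

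Junction and polarity genes of epithelia, 21 of 30 tested, had a median log2 fold change of 0.80, 16 of them higher and 5 lower. The likelihood ratio test called 0, or 4 without control 4 and 2 without mito-supplemented 1, where 2.25% and 2.72% of all genes tested were called. Their sums of 1008, 400.4, 407 and 884 CPM in controls 1 to 4 and 527, 1030.2, 867 and 919 CPM in mito-supplemented 1 to 4 overlapped, and Tjp1 was the most abundant. E-cadherin, encoded by Cdh1 and also made by oocytes, had 12.5 ± 6.95 CPM (SD, n = 4) in mito-supplemented libraries and 9.36 ± 9.10 CPM (SD, n = 4) in the controls. Of 8 epithelial transcription and splicing genes tested out of 10, 4 were higher and 4 lower, with a median of 0.23 that was -0.37 without mito-supplemented 1 and 1.17 without control 1. Ovol2 in this list and Pkp3 among the junction genes had 0 counts in every library. Grhl1 was higher without overlap (log2 fold change 1.31, standard error 0.68, adjusted p = 0.667 in edgeR's quasi-likelihood test) and Ehf lower without overlap (log2 fold change -1.59, standard error 0.82, adjusted p = 0.667 in the same edgeR test), where 2.03% of all genes tested did not overlap in the lower direction. Esrp1 was the most abundant of these genes, and their sum was highest in control 1, at 271 CPM, and between 33.0 and 91.4 CPM elsewhere.

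Among all other genes with an average log2 CPM of at least 0 in the output of edgeR, which averages before taking the logarithm, the 5 whose profile over the 8 libraries lay closest to the score were Lgr5, Gpr64, Unc45b, Adamts19 and Shank1, with root mean square differences of 0.31, 0.39, 0.40, 0.42 and 0.43 on the log2 scale. They were chosen out of 13629 genes for this likeness, which includes the difference between the groups. Gpr64, an adhesion G protein-coupled receptor, had 12.8, 3.41, 3.83 and 23.7 CPM in controls 1 to 4 and 30.5, 102, 28.1 and 57.2 CPM in mito-supplemented 1 to 4. Unc45b, a myosin chaperone, had 4.14, 2.70, 0.858 and 21.7 CPM in controls 1 to 4, against 17.9, 47.9, 26.9 and 71.8 CPM in mito-supplemented 1 to 4. Both had control 4 as the highest control and mito-supplemented 2 and 4 as the upper pair, the order seen for 9 of the 10 members. The metalloprotease gene Adamts19 reached 104 CPM in control 4 and 103 CPM in mito-supplemented 1, and Shank1 had at most 7 counts in any control. Of the members themselves, Upk3b lay closest to the score (0.24), followed by Krt19 (0.32) and Muc16 (0.39), and Upk1b farthest (1.70).

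Markers of other cells of the ovary also differed between libraries. The 10 stroma genes were all tested and all had log2 fold changes above 0, with a median of 0.63 (1.69 without control 4) and 0 called. Without mito-supplemented 3 the count above 0 was 8, and without mito-supplemented 4 it was 7. Col3a1 had the highest CPM in mito-supplemented libraries and Col1a1 in controls. Their sums were 429.9, 508, 788 and 2651 CPM in controls 1 to 4 and 1049, 1079.9, 2893 and 2515 CPM in mito-supplemented 1 to 4, so that control 4 was high for stroma as it was for 9 of the members. For 5 of 6 smooth muscle genes tested, all 5 above 0 (2 of 6 without mito-supplemented 4 and 3 of 6 without control 2), the median was 0.88 (2.10 without control 4 and -0.41 without mito-supplemented 4) and 0 were called, with sums of 27.9, 21.2, 49.4 and 229.5 CPM in controls 1 to 4 and 43.7, 75.1, 89.5 and 324 CPM in mito-supplemented 1 to 4, led by Myh11. For 7 of 8 endothelial genes tested the median was 1.35 (0.72 without mito-supplemented 3). The likelihood ratio test called 1, where 0.411% of all genes tested were called higher. The endothelial sums were 26.2, 28.6, 43.2 and 212 CPM in controls 1 to 4 and 97.0, 227, 182 and 201 CPM in mito-supplemented 1 to 4, led by Kdr. The endothelial adhesion gene Esam was called by the likelihood ratio test (log2 fold change 3.33, standard error 0.74, adjusted p = 0.0123 in edgeR's likelihood ratio test and 0.450 in its quasi-likelihood test) and was higher in 4 of 4 mito-supplemented libraries than in any control. The call was lost without control 2, control 3, mito-supplemented 2 or mito-supplemented 3, where the log2 fold change was 3.21, 3.44, 3.29 and 3.36. Without control 4, 2 endothelial genes and 1 stroma gene were called, where 2.25% of all genes tested were called. In control 4 stroma, smooth muscle and endothelial sums were each the highest among controls, as was the sum of the members. The part of these cells in the differences of the members was not tested.

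Of the oocyte and pregranulosa markers, all but Amh and Hsd17b1 had counts in every library. The 12 oocyte genes were all tested, 12 were lower and 0 called, with a median log2 fold change of -1.56 that became 0.27 without control 1. In that fit 3 were lower and 9 higher. With same-numbered libraries as a block, 9 were lower and 3 higher, with a median of -0.70. Their sums were 2652, 172, 135 and 526 CPM in controls 1 to 4 and 288, 178, 619.6 and 118 CPM in mito-supplemented 1 to 4, with Kit highest in controls and Zp2 in mito-supplemented libraries, and Ddx4 had at least 58 counts in every library. Control 1, with the highest oocyte sum, had the second-highest score among controls. Of 10 pregranulosa genes 9 were tested, 8 of them higher, with a median of 0.63, 0 called and Gatm as the most abundant. Without control 4 or mito-supplemented 1 the likelihood ratio test called 1 of them, where 2.25% and 2.72% of all genes tested were called. The pregranulosa sums of 228, 166, 198 and 432 CPM in controls 1 to 4 and 165, 436, 578 and 369 CPM in mito-supplemented 1 to 4 overlapped. The parts of oocytes and pregranulosa cells in the differences of the members were not tested.

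Blood cell markers differed widely between the libraries of each group. The red cell genes, 3 of 5 tested with a median of -0.35 (0.41 without control 2 and -5.57 without mito-supplemented 1) and 0 called, summed to 13.4, 3617, 2401 and 41.4 CPM in controls 1 to 4 and to 4530.3, 72.9, 20.1 and 19.2 CPM in mito-supplemented 1 to 4, led by Slc4a1. Leukocyte genes, 4 of 5 tested with a median of 0.90 and 0 called, summed to 7.43, 131, 114 and 20.9 CPM in controls 1 to 4 and to 731, 10.9, 14.5 and 8.55 CPM in mito-supplemented 1 to 4, led by Lyz2. The leukocyte median was -1.87 without mito-supplemented 1, 1.56 without control 3 and 1.61 without mito-supplemented 4. Without mito-supplemented 1 the likelihood ratio test called 1 leukocyte and 1 red cell gene lower. In that fit 387 of all 14251 genes tested were called, 229 of them higher and the rest lower. The part of blood cells in the score was not tested. Oviduct and ciliated cell genes, 4 of 8 tested with a median of 0.48 (-0.46 without mito-supplemented 4) and 0 called, summed to 20.3, 9.83, 48.8 and 27.8 CPM in controls 1 to 4 and to 16.4, 33.9, 5.49 and 165 CPM in mito-supplemented 1 to 4. Pax8 was the most abundant of them, and the highest sum was that of mito-supplemented 4.

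**Figure D5:**
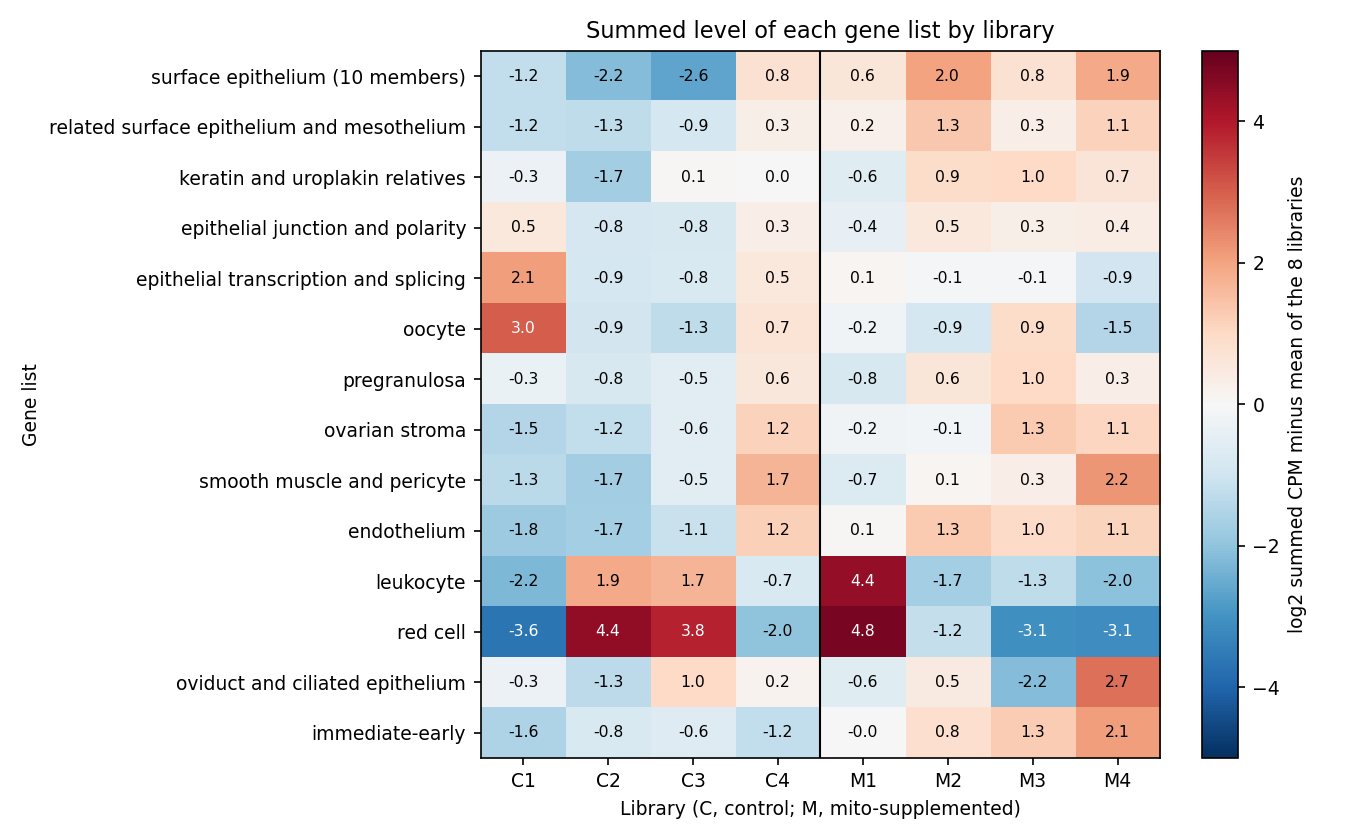
Summed level of each gene list in each control (C) and mito-supplemented (M) library, as log2 summed CPM minus the mean of the 8 libraries, with red above and blue below that mean. Control 4 (C4) is above the mean for 11 of the 14 lists, all but the red cell, leukocyte and immediate-early genes, and red cell and leukocyte genes are high in C2, C3 and M1.

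Immediate-early genes, which respond to stimulation and to tissue handling, were the remaining list. Of 12 genes 11 were tested, 10 of them higher and 1 lower, with a median log2 fold change of 2.44, 5 called by the likelihood ratio test (0.411% of all genes tested called higher) and 6 without overlap (3.00% of all). The count of 5 was 3 without control 1, 1 without control 2, 2 without mito-supplemented 2, 3 without mito-supplemented 3 and 2 without mito-supplemented 4. These fits called 0.420%, 0.152%, 0.0897%, 0.346% and 0.177% of all genes tested. As this list too was chosen with earlier results known, nothing is read from its counts. Their sums of 221, 387, 420.0 and 279.9 CPM in controls 1 to 4 and 639, 1161, 1563 and 2813 CPM in mito-supplemented 1 to 4 did not overlap. Egr1 had the highest CPM in mito-supplemented libraries and Jun in controls. Fos, Fosb, Atf3 and Nr4a1 had log2 fold changes of 3.15, 3.19, 4.14 and 2.56 (standard errors 0.64, 0.79, 0.79 and 0.67, with adjusted p values of 0.440, 0.540, 0.440 and 0.544 in edgeR's quasi-likelihood test). Without control 3 these were 3.90 for Fos and 4.85 for Atf3, and without mito-supplemented 4 they were 2.16 for Fosb and 1.88 for Nr4a1. The immediate-early sum of control 4 was below those of controls 2 and 3, and 9 of the members, Gpm6a included, were highest in control 4 among controls. Within the mito-supplemented group both the immediate-early sum (639 CPM) and the score (4.64) were lowest in mito-supplemented 1. Neither overlapped between the groups. The part of handling in the levels of the members was not tested.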

How the data were processed

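RNA-Seq counts per gene were analysed as deposited. The authors trimmed the reads with Trim Galore 0.4.4, mapped them to mm10 with STAR 2.5.3a and used featureCounts for counting, per the submitters' processing notes. Annotation release, strand setting and treatment of multiply mapped reads are not given in the sources used here. A further control library was not analysed here. The fits here used R 4.3.3 with edgeR 4.0.16 (default filterByExpr, TMM, quasi-likelihood test, likelihood ratio test) and DESeq2 1.42.0, with Benjamini-Hochberg adjustment over all genes tested, and genes were called at an adjusted p under 0.05 with at least a 2-fold difference. log2 CPM used a prior count of 2. Total counts were 10370045 to 19760763. Each standard error is the log2 fold change divided by the square root of F. Standard errors and p values rest on the spread between these libraries and treat them as independent, although some share a label code prefix. Unused columns were 0. Exon lengths were the union of GENCODE M21 exons. The members and lists were chosen with earlier results of these data known. Genes named were all members, the gene of each list with the highest mean CPM in each group, up to 4 called or non-overlapping genes per list with the largest fold change, the 5 genes most like the score and defining markers at or near 0, and outside this rule the markers Wt1, Cdh1 and Ddx4, and Krt20 after its values were seen. Same-numbered libraries were checked for pairing. The edgeR filter, fits and calls were also run on simulated counts.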

Additional observations from a re-analysis of the deposited data

Results flagged for a closer look

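In 82 groups of 4 libraries examined, 3 values lay far from the other 3 libraries of their group by Dixon's criterion, where chance gives about 1 in 20. The log2 summed CPM of the leukocyte genes was 9.51 in mito-supplemented 1, with 3.10 to 3.86 in the rest of its group. The TMM factor of mito-supplemented 3 was 1.37, against 1.05 to 1.09 in the rest of its group. The log2 CPM of Ehf was 1.52 in control 3, against 0.63 to 0.77 in the other controls. No level of a member and no score was among them.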

How the results depend on the processing

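In 14 alternatives for each member and 25 for the score, chosen with earlier results known, all 140 log2 fold changes and all 25 score differences stayed above 0, and 135 of the 140 moved by less than the pooled SD of log2 CPM within groups, a wide tolerance for these genes. Nothing is read from these signs, because the members were chosen with their contrast known. The score difference changed by -0.46 (without control 3) to 0.70 (without control 4) on leaving out single libraries, up to 3.65. It was 2.48 without Upk1b and Gpm6a, an alternative chosen after seeing the data. As a mean over the replicate block it was 2.96, which equals the main difference by arithmetic, so that this alternative could not differ. In the replicate block the log2 fold changes were 3.10 for Msln, 2.66 for Upk3b, 2.61 for Krt7, 2.73 for Krt19 and 2.74 for Lrrn4, all moves of over 1.5 times on the linear scale. Such moves with library size only were those of Upk3b (2.71), Krt7 (2.78), Krt8 (2.23), Krt18 (2.21), Krt19 (2.58), Msln (1.94) and Muc16 (2.52), and with counts summed by label code prefix those of Upk3b (2.69), Krt7 (3.01), Krt8 (2.18), Krt18 (2.49), Msln (1.78), Lrrn4 (2.84), Gpm6a (5.16) and, to a like extent, Krt19. The likelihood ratio test called 5 members with library size only (1.51% of all genes tested) and 4 with counts summed by prefix (40 genes, 0.255% of all), and nothing is read from either count. The quasi-likelihood count stayed at 0 in edgeR, while DESeq2 called 141 genes. The likelihood ratio count was 210 with library size only, of which 57 were shared with the 58, and ranged over 13 to 387 on leaving out single libraries. It was 22 without control 2, 331 without control 4, 387 without mito-supplemented 1, 13 without mito-supplemented 2 and 26 without mito-supplemented 4, and the cause was not tested. The count of related genes called was 3 in DESeq2, 5 with library size only, 1 in the replicate block, 1 with counts summed by label code prefix and 0 to 8 on leaving out single libraries. Of the junction genes, 1 was called in DESeq2 and 3 with library size only. Of the family relatives, 1 was called in each of these 2 settings, in the replicate block and in the sums by prefix. Of the pregranulosa genes, 1 was called in DESeq2 and 1 with library size only. Over all genes tested, 1.02% were called in DESeq2, 1.51% with library size only and 0.533% in the replicate block. The endothelial call of Esam was lost in the replicate block (log2 fold change 3.28) and in the sums by prefix (3.11). Same-numbered libraries had deviations correlated at -0.24, -0.19, -0.33 and 0.22, so that the numbers did not pair them, and with the replicate block the likelihood ratio test called 74 genes, 44 of them among the 58. The low counts of Upk1b, Msln and Lrrn4 in controls limit the precision of their fold changes.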
